A study of Homo sapiens with 6 samples.

Results

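A set of 10 genes that are read as markers or regulators of the epithelial-mesenchymal balance were followed in HT29 cells, a human colorectal adenocarcinoma line, under shortage of a single amino acid. They are the cadherins CDH1, CDH2 and CDH3, the adhesion molecule EPCAM, vimentin (VIM), fibronectin (FN1), the transcription factors SNAI1, SNAI2 and ZEB1, and the hyaluronan receptor CD44. The members were taken by symbol, through the Ensembl identifiers of the deposited tables and the GENCODE 44 annotation, and all 10 were found among 60676 listed genes.

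Epithelial cells hold to each other through E-cadherin (CDH1), whose tail binds catenins and through them the actin cytoskeleton. Transcription factors of the SNAI and ZEB families bind E-boxes in DNA and are known as repressors of CDH1 and of other epithelial genes, and ZEB1 is in turn repressed by the microRNAs of the miR-200 family. In the classical transition CDH1 and EPCAM are lost while N-cadherin (CDH2), vimentin and fibronectin are gained, and carcinoma cells often show only a part of this programme.

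Cells were untreated, kept without histidine (histidine depletion) or kept without tryptophan (tryptophan depletion), each for 48 h and each with 2 RNA-seq libraries. No drug, interferon or genetic change was added in any of the 3 groups. Medium for histidine depletion was built on RPMI and that for tryptophan depletion on DMEM F-12, both with dialyzed serum, and the base of the control medium of these libraries is not given in the sources used here. For cells collected for other assays the study's methods name full RPMI medium as the control. Tryptophan depletion and the DMEM F-12 base therefore cannot be told apart if that control was also used here. For histidine depletion a difference in base medium was not tested. The depletion media differ in base whatever the control was, so amino acid and base medium cannot be told apart in their direct contrast. The labels do not say that the 2 libraries of a group came from separate cultures, so the spread between them may be technical. The p-values of limma rest on that spread and on a spread shared over all genes tested in a comparison. Their sizes are therefore not to be ranked between comparisons. Both depletions were compared with the same untreated libraries.

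The libraries held 46.4 M to 64.4 M counted reads. Colon epithelial markers were detected in all groups, but most were lower after histidine depletion. Of 14 such markers, 14 had more than 3 reads in at least 1 library of the untreated and of the tryptophan-depleted group, and 13 in the histidine-depleted group, where CDX1 had 0 reads. Their summed scaled counts were 408811 to 434549 in untreated cells, 522936 to 555983 after histidine depletion and 579765 to 584125 after tryptophan depletion, most of it from keratins. By limma at an adjusted p of 0.05, 3 of the 14 were higher and 11 lower after histidine depletion, against 39.1% and 38.2% of all genes tested. The median log2 fold change was -1.36, against 0.01 over all genes. Of the 14, 8 were called and at least 2-fold lower, where 16.1% of all genes were. The median and the count of 8 are the same with CDX1 set to 3 reads in each histidine-depleted library. HNF4A, a transcription factor of gut epithelium, fell by 2.76 on the log2 scale. The keratins KRT20, KRT19 and KRT8 rose 3.33-fold, 2.92-fold and 1.72-fold. After tryptophan depletion 7 were higher and 5 lower, against 36.1% and 34.8% of all genes, with a median of 0.24 against 0.01. Called and at least 2-fold changed were 2 higher and 4 lower, where 10.0% and 10.4% of all genes were. There HNF4A fell by 1.33 on the log2 scale and CEACAM5, another of the 14, rose 15.1-fold. The part of these shifts in the members' changes was not tested. Of 10 fibroblast markers at most 3 exceeded 3 reads in any group, with sums of 48.8 to 78.6 scaled counts, and COL1A2 and PDGFRA were at 0 in all 6 libraries. Of 10 leukocyte and mast cell markers at most 3 exceeded 3 reads, mostly CD14 and ITGAM, with sums of 161 to 388 and KIT, CPA3 and TPSAB1 at 0. Of 8 endothelial markers 4 or 5 exceeded 3 reads, with sums of 2155 to 2370, 6638 to 6713 and 2198 to 2265 in the 3 groups, nearly all from ESAM. In bulk RNA, fewer cells with a transcript and less transcript per cell cannot be told apart.

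After both depletions SNAI1, ZEB1 and CDH1 were higher and CD44 and CDH3 lower than in untreated cells, and CDH2, SNAI2 and VIM stayed at or near 0 reads. Of the members tested, the regulators ZEB1 and SNAI1 and the receptor CD44 moved most without histidine. Each of these 3 moved further than without tryptophan, where CDH3 moved more than SNAI1. Per-library values below are scaled counts, that is, recovered reads divided by size factors set over all 6 libraries. Fold changes against untreated cells are differences of log2(normalized count + 1) within a deposited table, with the standard error (SE) and the Benjamini-Hochberg adjusted p of limma, called at a threshold of 0.05. A member was tested where its mean over the libraries compared reached 10 normalized counts, which 7 of the 10 did.

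**Figure D1:**
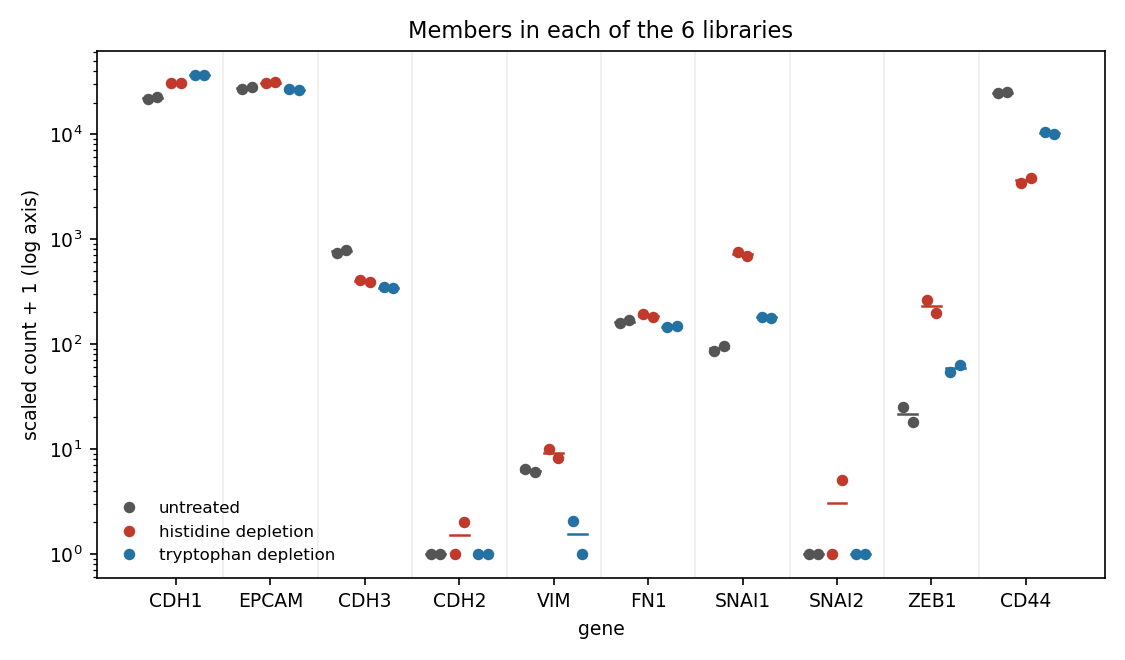
Scaled count + 1 on a log axis for each of the 10 genes, with a point per library and a short line at the mean of the 2 libraries of a group (grey, untreated; red, histidine depletion; blue, tryptophan depletion). CD44 fell from 24489 and 24996 to 3414 and 3810 without histidine, SNAI1 and ZEB1 moved the other way, and CDH2 and SNAI2 had reads in a single library.

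After histidine depletion 4 of the 7 tested members were called higher and 2 lower, against 39.1% and 38.2% of the 18288 genes tested. After tryptophan depletion 3 were higher and 2 lower, against 36.1% and 34.8% of 17960 genes. With a log2 fold change of at least 1 in either direction as a further condition, 2 members were higher (SNAI1 and ZEB1) and 1 lower (CD44) after histidine depletion, where 16.4% and 16.1% of all genes were, and 1 was higher (ZEB1) and 2 lower (CD44 and CDH3) after tryptophan depletion, where 10.0% and 10.4% were. A call alone therefore says little here, and the sizes carry the description. The absolute log2 change of ZEB1 exceeded that of 98.0% of tested genes after histidine depletion, that of SNAI1 96.9% and that of CD44 96.1%, while that of EPCAM exceeded 15.1%.

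**Figure D2:**
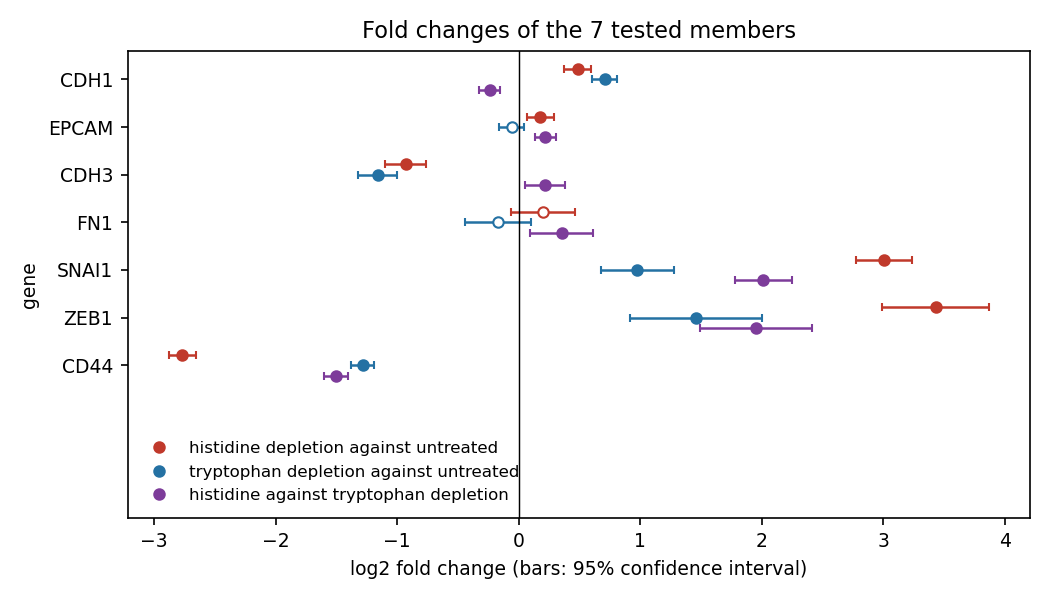
Log2 fold change of the 7 tested members with its 95% confidence interval in the 3 comparisons (red, histidine depletion against untreated; blue, tryptophan depletion against untreated; purple, histidine against tryptophan depletion), where open circles did not pass the adjusted p of 0.05. SNAI1 and ZEB1 lie far to the right at 3.01 and 3.43 after histidine depletion, CD44 far to the left at -2.77, and the red and blue points of FN1 and the blue point of EPCAM are open.

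CDH1, at chr16:68737292-68835537 on the plus strand of GRCh38, encodes E-cadherin. It was among the strongly expressed members and its mRNA rose under both depletions. Scaled counts were 21703 and 22815 in untreated cells, 31015 and 30916 without histidine, and 36293 and 36805 without tryptophan. The 3 groups did not overlap, and the libraries without tryptophan were the highest. Against untreated cells the log2 fold change was 0.49 (SE 0.05, adjusted p = 1.33e-08) after histidine depletion, a factor of 1.40, and 0.71 (SE 0.05, adjusted p = 7.38e-27) after tryptophan depletion, a factor of 1.63. The direct contrast put CDH1 lower without histidine than without tryptophan, at -0.24 (SE 0.04, adjusted p = 3.58e-05). The increase against untreated cells kept its direction and its call in each of 15 alternative settings of the fit per depletion, with values of 0.25 to 0.52 for histidine and 0.56 to 0.74 for tryptophan.

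The catenins and linkers that tie E-cadherin to actin were measured in 10 of 11 listed genes. After histidine depletion 7 were higher and 1 lower, where 39.1% and 38.2% of all genes tested were. The median log2 fold change was 0.40 where the median of all genes was 0.01. After tryptophan depletion 4 were higher and 5 lower, where 36.1% and 34.8% of all genes were, with a median of -0.11. The same shares of all genes apply to the counts of each list below. List medians are to be read against the scaling, since scaling to the library total moved the median of all genes by -0.19 after histidine depletion. VCL, vinculin, an actin linker of adherens and focal contacts, rose 3.68-fold from 7839 to 28876 normalized counts without histidine and fell by 0.57 on the log2 scale without tryptophan. CTNNA1, alpha-catenin, rose 1.86-fold without histidine. CTNNAL1, an alpha-catenin relative, rose 1.66-fold without histidine and fell by 0.90 on the log2 scale without tryptophan. VCL also had the largest direct contrast of the list, at 2.43 (SE 0.04, adjusted p = 8.85e-18).

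The desmosome is the second adhesive junction of these cells. Of 14 listed genes 11 were tested after histidine depletion, 5 higher and 5 lower, against 39.1% and 38.2% of all genes. After tryptophan depletion 10 were tested, 4 higher and 5 lower, against 36.1% and 34.8%. The medians were -0.11 and -0.18. PPL, periplakin, which links desmosomes to keratin filaments, rose 4.20-fold without histidine and 2.06-fold without tryptophan. The related EVPL, envoplakin, fell by 1.23 on the log2 scale without histidine. PKP2, plakophilin 2, fell by 1.05 on the log2 scale without tryptophan and rose 1.21-fold without histidine.

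Polarity genes set apart the apical and basal sides of an epithelial cell. All 15 were tested, and 7 were higher and 8 lower after histidine depletion, and 8 higher and 3 lower after tryptophan depletion, with no gene past a log2 fold change of 1 in either direction under either depletion. SCRIB, a basolateral determinant, fell by 0.94 on the log2 scale without histidine and PARD6B, a partner of atypical protein kinase C, rose by 0.96. Among 8 genes of E-cadherin maturation, uptake and cleavage, 4 were higher and 3 lower after histidine depletion, and 1 was higher and 4 lower after tryptophan depletion. The proprotein convertase FURIN, which cleaves the E-cadherin precursor, rose 1.93-fold without histidine and 2.44-fold without tryptophan.

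EPCAM, at chr2:47345158-47387601 on the plus strand, encodes the epithelial cell adhesion molecule, a membrane protein that carcinomas of the colon express at a high level. Scaled counts were 26653 and 28129 in untreated cells, 30628 and 31026 without histidine, and 26636 and 26253 without tryptophan. EPCAM was the most expressed member per length in all groups and the tested member that changed least against untreated cells. The log2 fold change after histidine depletion was 0.18 (SE 0.05, adjusted p = 0.0046), but it reversed to -0.077 (adjusted p = 0.0233) with quantile normalization and to -0.0096 (adjusted p = 0.772) with scaling to the library total. The call was also lost in limma without trend (adjusted p = 0.0653) and when either histidine-depleted library was left out, at adjusted p = 0.161 and 0.190. After tryptophan depletion the log2 fold change was -0.06 with a 95% confidence interval of -0.16 to 0.04 (adjusted p = 0.31), and it became a call for a lower level with quantile normalization, at -0.20 (adjusted p = 1.30e-05), with scaling to the library total, at -0.13 (adjusted p = 0.000776), and without untreated library 1, at -0.10 (adjusted p = 0.00218). No direction of EPCAM against untreated cells held under all scalings after histidine depletion, whereas the direct contrast, at 0.22 (SE 0.04, adjusted p = 8.92e-05), kept its sign and its call in 17 alternative settings.

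EPCAM works beside the tight junction protein CLDN7 and the proteases that cut it. All 12 listed partners were tested, and 6 were higher and 4 lower after histidine depletion, with a median of 0.10, and 9 were higher and 2 lower after tryptophan depletion, with a median of 0.45. The serine protease TMPRSS4 fell by 1.50 on the log2 scale without histidine and rose 1.54-fold without tryptophan. Without tryptophan ADAM17, a sheddase of EPCAM, rose 1.81-fold, and the serine protease PRSS8, prostasin, rose 1.75-fold.

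CDH3, at chr16:68636189-68727468 on the plus strand next to CDH1, encodes P-cadherin. It fell under both depletions, opposite to its neighbour. Scaled counts were 734 and 792 in untreated cells, 403 and 393 without histidine, and 345 and 340 without tryptophan. Every depleted library was below every untreated library. CDH3-AS1, on the opposite strand, shares 8.40% of the exonic bases of CDH3 and had 1 to 4 reads per library. P-cadherin changed by a log2 fold of -0.93 (SE 0.08, adjusted p = 2.05e-10) after histidine depletion and -1.16 (SE 0.08, adjusted p = 7.08e-28) after tryptophan depletion, and both kept direction and call in 15 alternative settings of the fit, with values of -1.12 to -0.71 and -1.23 to -1.04. The direct contrast of 0.22 (SE 0.08, adjusted p = 0.0175) passed the threshold but lost its call in 5 of 17 alternatives, among them DESeq2 (adjusted p = 0.0898), scaling to the library total (0.152) and the fits without histidine-depleted library 1 (0.0748) or without tryptophan-depleted library 1 (0.0522) or 2 (0.0751).

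CDH2, at chr18:27932879-28177946 on the minus strand, encodes N-cadherin, the cadherin gained in the classical transition. It had 0 reads in 5 libraries and 1 read in histidine-depleted library 2. With 3 reads as the limit that a count of 0 allows, the untreated group could hold up to 3.03 reads per 100 M and the tryptophan-depleted group up to 2.72, for counting error only. A switch from E- to N-cadherin transcripts was not detectable at this depth. Of 12 further cadherins most were also under the filter. After histidine depletion 3 passed it, of which 2 were lower, and after tryptophan depletion 4, of which 2 were higher and 2 lower. CDH17, the cadherin of intestinal epithelium, fell by 0.58 on the log2 scale without histidine and rose 1.77-fold without tryptophan. CDH4, R-cadherin, rose 2.91-fold without tryptophan from 40.2 to 118 normalized counts and fell by 0.99 on the log2 scale without histidine. CDH24 fell by 1.54 on the log2 scale without tryptophan.

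VIM, at chr10:17228241-17237593 on the plus strand, encodes the intermediate filament protein of mesenchymal cells. It had 5 and 5 reads in untreated cells, 10 and 7 without histidine, and 1 and 0 without tryptophan. All 6 libraries were thus at a handful of reads in libraries of at least 46.4 M, and the gene did not pass the filter on low values. Per 100 M reads the pooled counts gave 10.1 in untreated cells (exact Poisson 95% interval 4.84 to 18.6), 13.9 without histidine (8.12 to 22.3) and 0.906 without tryptophan (0.0229 to 5.05). The ratio of tryptophan-depleted to untreated cells, from 1 and 10 reads, was 0.0897 with a counting interval of 0.00207 to 0.63, and that of histidine-depleted to untreated cells was 1.38 with an interval of 0.597 to 3.37. That of histidine-depleted to tryptophan-depleted cells, from 17 reads and 1 read, was 15.4 with an interval of 2.41 to 643. Without the filter, limma called VIM lower after tryptophan depletion (adjusted p = 0.0152) and higher without histidine than without tryptophan, at a log2 difference of 2.65 (adjusted p = 0.00305), and the difference between histidine-depleted and untreated cells did not pass the threshold (adjusted p = 0.388). Exons of VIM-AS1 on the opposite strand cover 12.7% of the exonic bases of VIM, and VIM-AS1 had at most 3 reads in any library. Whether strand was used in counting is not given in the sources used here.

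FN1, at chr2:215360440-215436073 on the minus strand, encodes fibronectin, an extracellular matrix protein. Scaled counts were 157 and 167 in untreated cells, 192 and 179 without histidine, and 143 and 147 without tryptophan. The groups did not overlap, but the differences were small. The log2 fold change was 0.20 with a 95% confidence interval of -0.07 to 0.47 (adjusted p = 0.16) after histidine depletion and -0.17 with an interval of -0.44 to 0.10 (adjusted p = 0.267) after tryptophan depletion. Neither passed the threshold, and only quantile normalization gave a call, higher without histidine at 0.30 (adjusted p = 0.0404). The direct contrast was 0.35 (SE 0.12, adjusted p = 0.015), and it missed the threshold with DESeq2 (adjusted p = 0.0871), with scaling to the library total (0.0658), without histidine-depleted library 1 (0.09) and without tryptophan-depleted library 1 (0.0636). Counts were made per gene, so splice forms of FN1 and of CD44 could not be told apart.

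Fibronectin is bound by integrins and syndecans and assembled into fibrils at the cell surface. Of 14 listed receptors and assembly factors 11 were tested, and 8 were higher and 3 lower after histidine depletion and 8 higher and 2 lower after tryptophan depletion, with medians of 0.75 and 0.41. FERMT2, kindlin-2, an activator of integrins, rose 15.1-fold from 10.4 to 167 normalized counts without histidine. ITGAV, the integrin alpha-V chain, rose 3.12-fold without histidine, and TGM2, a transglutaminase that crosslinks matrix, rose 3.72-fold without tryptophan. TNS1, tensin 1, fell by 2.54 on the log2 scale without histidine. ITGA5, the alpha chain of the main fibronectin receptor, had under 3 scaled counts in every library and was not tested, a value given because of its role and chosen after it was seen.

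Most of the other mesenchymal genes listed had too few reads to pass the filter. Of 20 listed genes 13 did not pass the filter after histidine depletion and 12 after tryptophan depletion. Of the tested ones 3 were higher and 2 lower without histidine, and 3 were higher and 3 lower without tryptophan, with medians of 0.59 and -0.26. TNC, tenascin C, a matrix glycoprotein, rose 22.8-fold from 226 to 5160 normalized counts without histidine and 6.20-fold without tryptophan. TAGLN, transgelin, an actin-binding protein, rose 5.06-fold and 4.38-fold. S100A4, a calcium-binding protein also called fibroblast-specific protein, fell by 1.91 and by 0.24 on the log2 scale. COL1A2, PDGFRA and POSTN, typical of fibroblasts, had at most 1 read in any library.

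SNAI1, at chr20:49982980-49988886 on the plus strand, encodes SNAIL, a zinc finger repressor. It rose strongly without histidine and moderately without tryptophan. Scaled counts were 84.2 and 95.5 in untreated cells, 759 and 689 without histidine, and 179 and 178 without tryptophan. The 3 groups were well apart, with both histidine-depleted libraries more than 3 times as high as any other library. The log2 fold change was 3.01 (SE 0.11, adjusted p = 1.64e-17) after histidine depletion, a factor of 8.04, and 0.98 (SE 0.15, adjusted p = 4.48e-09) after tryptophan depletion, a factor of 1.97. The difference between the depletions was 2.01 (SE 0.11, adjusted p = 1.82e-11). A processed pseudogene, SNAI1P1, had 0 reads in all 6 libraries.

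The related SNAI2, which encodes SLUG, had 0 reads in 5 libraries and 4 reads in histidine-depleted library 2. All its reads thus came from a single library, the same one that held the single CDH2 read. By the same limit of 3 reads the untreated group could hold up to 3.03 reads per 100 M.

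SNAIL protein is short-lived and is known to be controlled after translation, by kinases, ubiquitin ligases and deubiquitinases, and it acts with histone deacetylases and demethylases. None of that control is seen in mRNA, but the genes were measured. Of 16 such genes 6 were higher and 8 lower after histidine depletion, with a median of -0.23, and 9 were higher and 6 lower after tryptophan depletion, with a median of 0.15. The corepressor demethylase KDM1A fell by 1.21 and by 0.85 on the log2 scale, and the histone methyltransferase SUV39H1 fell by 1.17 and by 2.71. USP27X, a deubiquitinase of SNAIL, fell by 1.55 on the log2 scale without histidine and rose 1.34-fold without tryptophan. The ubiquitin ligase subunit BTRC rose 1.85-fold without tryptophan.

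ZEB1, at chr10:31318495-31529814 on the plus strand, encodes a zinc finger and homeobox repressor. It had the largest fold increase of the tested members, from a low base. Scaled counts were 24.0 and 16.9 in untreated cells, 259 and 197 without histidine, and 53.4 and 62.3 without tryptophan. The groups did not overlap, although the 2 histidine-depleted libraries lay apart from each other. Its log2 fold change was 3.43 (SE 0.21, adjusted p = 2.47e-13) after histidine depletion, a factor of 10.8, and 1.46 (SE 0.28, adjusted p = 1.00e-06) after tryptophan depletion, a factor of 2.75. The direct contrast was 1.95 (SE 0.22, adjusted p = 2.58e-07). Only 17 and 22 reads stand behind the untreated values, so the size of the fold is less precise than for CD44, and the pseudocount makes it an understatement.

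The span of ZEB1 overlaps those of other genes. ZEB1-AS1 runs on the opposite strand and its exons cover 4.58% of the exonic bases of ZEB1. It had 189 ± 19.3 normalized counts (SD, n = 2) in untreated cells and 124 ± 12.1 without histidine, a decrease of the log2 value by 0.60 (limma adjusted p = 0.000451), and did not pass the threshold without tryptophan (0.03, adjusted p = 0.812). SPTLC1P1, a pseudogene within the span of ZEB1 on the same strand, shares no exonic base with it. Its log2 value rose by 1.29 without histidine (limma adjusted p = 0.000394) and did not pass the threshold without tryptophan (0.31, adjusted p = 0.448). Whether reads of either gene entered the count of ZEB1 was not tested.

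Sequences of ZEB1 are shown because this gene rose most and because E-boxes and matches to the miR-200 family can be read in them. The table of RefSeq start sites (GRCh38.p14) held 5 of the 10 members: CDH2, VIM, FN1, ZEB1 and CD44. The 250 bases before each of their 12 start sites were searched on both strands for CAGGTG, which reads CACCTG on the other strand, the E-box bound by SNAI and ZEB proteins. Of the 12 windows 2 held it, both of ZEB1, which has 7 windows, and 17.5% of all 35116 RefSeq windows of this length hold it. The window before the start at position 31319216 of chromosome 10 held 2 matches, and 2.53% of all windows hold 2 or more. The matches, with neighbouring bases in lower case and the E-box in capitals, are printed as the plus strand reads. They begin 57 bases before the start at 31318417, and 242 and 85 bases before the start at 31319216, and the one at 242 is CACCTG, so that its CAGGTG is on the minus strand.
ZEB1 chr10:31318348-31318377: ccgaggtgacagCAGGTGagggccgggtgc
ZEB1 chr10:31318966-31318991: ccccaccaCACCTGaggaaaactttt
ZEB1 chr10:31319119-31319148: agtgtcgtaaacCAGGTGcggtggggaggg
A match describes letters only, and binding was not measured here.

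The miR-200 family falls into groups by the seed, bases 2 to 8 of the mature RNA. The RefSeq mature sequences are shown with the seed in capitals, first the 2 that share AACACUG and then the 3 that share AAUACUG.
hsa-miR-200a-3p: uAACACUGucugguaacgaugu
hsa-miR-141-3p: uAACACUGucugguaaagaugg
hsa-miR-200b-3p: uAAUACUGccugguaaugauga
hsa-miR-200c-3p: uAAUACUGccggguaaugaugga
hsa-miR-429: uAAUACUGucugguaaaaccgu
The groups differ by a single base of the seed, so that each pairs with its own 7-letter match in a transcript.

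The 3′ untranslated region of the main ZEB1 transcript is 2540 bases long and held 6 matches CAGTATT to the seed of miR-200b, miR-200c and miR-429, and 3 matches CAGTGTT to that of miR-200a and miR-141. Of 19545 such regions, 1 per protein-coding gene, 16.0% held CAGTATT at least once and 2 regions, ZEB1 among them, held it 6 times or more. CAGTGTT was held at least once by 18.1%, and 3 times or more by 1.00%. Among the 4569 regions at least as long as that of ZEB1 the shares with as many matches were 0.0438% and 4.14%. The sites are printed on the plus strand of GRCh38 with the seed match in capitals, the first 3 for miR-200b, miR-200c and miR-429 and the last for miR-200a and miR-141.
ZEB1 chr10:31527618-31527640: attgttttatcttatCAGTATTa
ZEB1 chr10:31527712-31527734: atgctaaatccgcttCAGTATTt
ZEB1 chr10:31528141-31528163: gtaagtgccatttctCAGTATTt
ZEB1 chr10:31528031-31528053: caaaatcatcagaatCAGTGTTt
Mature microRNAs were not measured, since the libraries were made from mRNA.

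The host transcript of miR-200c and miR-141, MIR200CHG, was measured, and its values were chosen for their bearing on ZEB1 after they were seen. Scaled counts were 72.1 and 75.6 in untreated cells, 21.7 and 29.5 without histidine, and 123 and 114 without tryptophan. The host fell by 1.50 on the log2 scale without histidine (SE 0.24, adjusted p = 4.87e-06) and rose by 0.67 without tryptophan (SE 0.17, adjusted p = 0.000336), and the direct contrast was -2.18 (SE 0.20, adjusted p = 2.69e-08). ZEB1 rose under both depletions, so that the host and ZEB1 moved in opposite directions without histidine and in the same direction without tryptophan. A link between the host and the level of ZEB1 was not tested. miR-200a, miR-200b and miR-429 lie on chromosome 1, and a host of theirs was not among the genes listed.

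Of the other transcription factors tied to the transition, 6 of 11 did not pass the filter, and TWIST1, TWIST2 and GSC had 0 reads in all 6 libraries. Under each depletion 1 was higher and 3 were lower, with medians of -0.92 and -0.60. FOXC1, a forkhead factor, rose 2.38-fold without histidine and 3.37-fold without tryptophan. SOX9, an intestinal crypt and progenitor factor, fell by 1.12 and by 0.60 on the log2 scale, and TCF3, an E-box factor, fell by 0.92 without histidine. ZEB2, the paralogue of ZEB1, had 5.46 and 4.97 scaled counts in untreated cells, 15.4 and 11.2 without histidine and 5.34 and 5.49 without tryptophan, and was under the filter.

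Regulators that keep the epithelial state gave other counts after each depletion, a difference that was not tested for the list. Of 12 tested genes 4 were higher and 5 lower after histidine depletion, with a median of -0.08, and 9 were higher and 1 lower after tryptophan depletion, with a median of 0.54. KLF4, a factor of differentiated epithelium, rose 7.85-fold without histidine and 3.98-fold without tryptophan, and OVOL1, a repressor of ZEB1, rose 2.49-fold and 2.40-fold. Its relative OVOL2 fell by 1.35 on the log2 scale without tryptophan. ESRP1, the splicing factor of epithelial isoforms that acts on CD44 among others, was 4.75-fold lower without histidine than without tryptophan in the direct contrast (SE 0.04 on the log2 scale, adjusted p = 2.86e-17), with scaled counts of 19722 and 20806 in untreated cells, 8262 and 8862 without histidine and 40409 and 40950 without tryptophan.

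CD44, at chr11:35138882-35232402 on the plus strand, encodes the receptor of hyaluronan, a marker of intestinal stem cells and of mesenchymal or stem-like carcinoma cells. It showed the largest decrease of the tested members. Scaled counts were 24489 and 24996 in untreated cells, 3414 and 3810 without histidine, and 10427 and 10018 without tryptophan. The 3 groups were far apart. CD44 changed by a log2 fold of -2.77 (SE 0.05, adjusted p = 8.32e-23) after histidine depletion and -1.28 (SE 0.05, adjusted p = 6.38e-55) after tryptophan depletion, and the direct contrast was -1.50 (SE 0.05, adjusted p = 9.54e-15). The values stayed between -2.96 and -2.69 and between -1.38 and -1.26 in 15 alternative settings each. A lncRNA on the opposite strand, CD44-AS1, shares 0.841% of the exonic bases of CD44 and had 1 to 15 reads per library, and CD44-DT shares 0.701% and had 1 to 13.

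Hyaluronan enzymes and the proteins that link CD44 to actin were counted beside all genes tested. After histidine depletion 7 of 14 tested genes were higher and 6 lower, against 39.1% and 38.2% of all genes, with a median of 0.05. After tryptophan depletion 6 of 15 were higher and 6 lower, against 36.1% and 34.8%, with a median of 0.09. EZR, ezrin, which joins the tail of CD44 to actin, rose 3.96-fold from 12388 to 49033 normalized counts without histidine. CEMIP, a hyaluronan-degrading protein, fell from 9024 to 820 normalized counts, a decrease by 3.48 on the log2 scale, and MMP14, a membrane protease that cleaves CD44, fell by 1.58. Without tryptophan the hyaluronan-mediated motility receptor HMMR fell by 2.19 and the synthase HAS3 by 1.43 on the log2 scale.

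**Figure D3:**
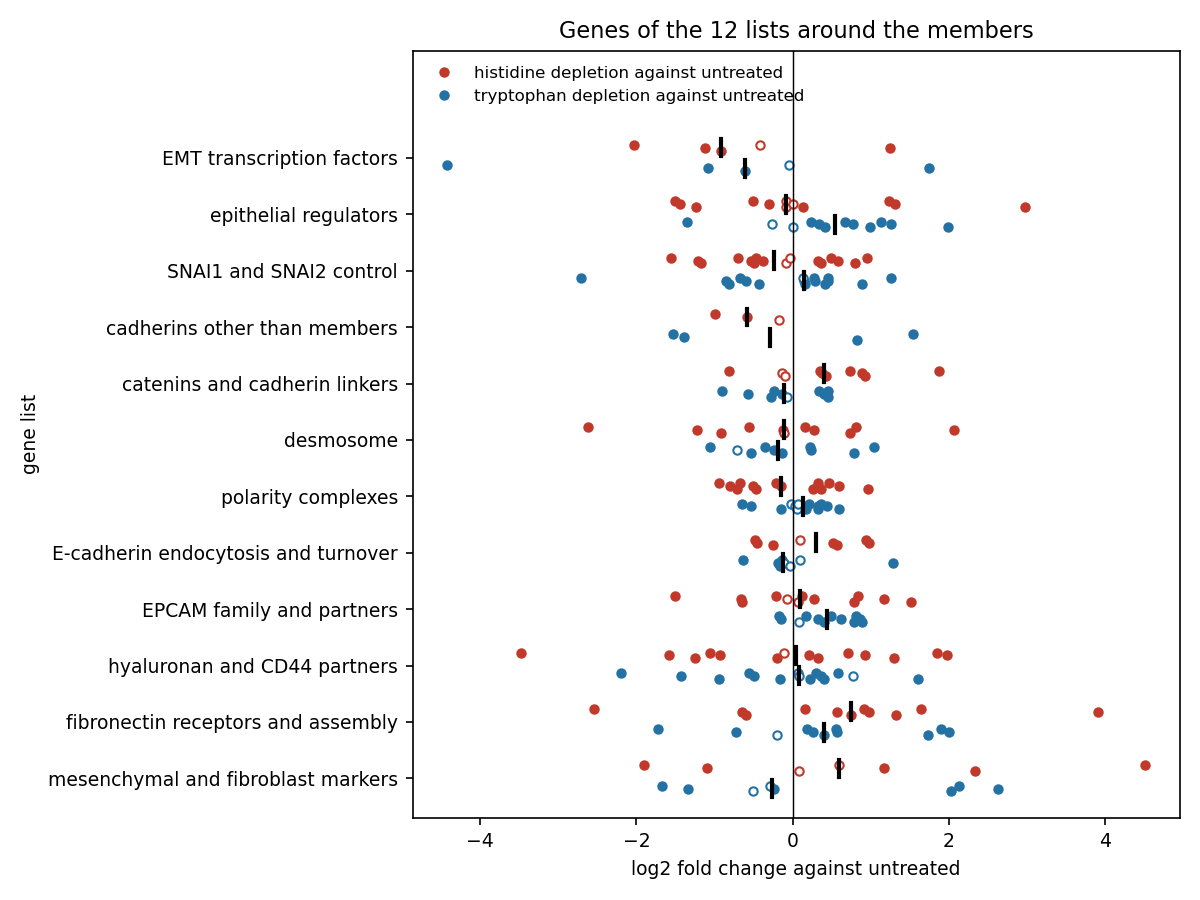
Log2 fold change against untreated cells of each tested gene in the 12 lists around the members (red, histidine depletion; blue, tryptophan depletion; open circles did not pass the adjusted p of 0.05), with a black line at the median of each list. Members are left out, TNC at 4.51 is the point farthest to the right, and the point farthest to the left, TCF4 without tryptophan, rests on 0 reads in both depleted libraries, so that its value is set by the pseudocount.

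Between genes, levels were compared per length, as reads per kilobase of annotated exon per 1 M reads. In untreated cells the order was EPCAM at 219 ± 3.48 (SD, n = 2), CDH1 at 71.1 ± 0.932, CD44 at 48.1 ± 0.372, CDH3 at 2.32 ± 0.0714, SNAI1 at 1.02 ± 0.0684, FN1 at 0.183 ± 0.00367 and ZEB1 at 0.0461 ± 0.0124. No neighbours in this order overlapped between their libraries. Without histidine SNAI1, at 6.90 and 7.65, stood above CD44, at 5.87 and 6.51, and ZEB1, at 0.390 and 0.515, above FN1, at 0.178 and 0.191. Without tryptophan CD44 at 18.8 ± 0.577 remained above SNAI1 at 1.92 ± 0.0171, while SNAI1 stood above CDH3 at 0.984 ± 0.0125 and FN1, at 0.153 and 0.156, above ZEB1, at 0.114 and 0.132. These levels divide by the union of all annotated exons and understate genes with many alternative exons. The order of genes rests on these lengths, such as 9992 bases for CD44 against 1705 for SNAI1, and 17216 for FN1 against 8650 for ZEB1. Whether it holds with the lengths of single transcripts was not tested.

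**Figure D4:**
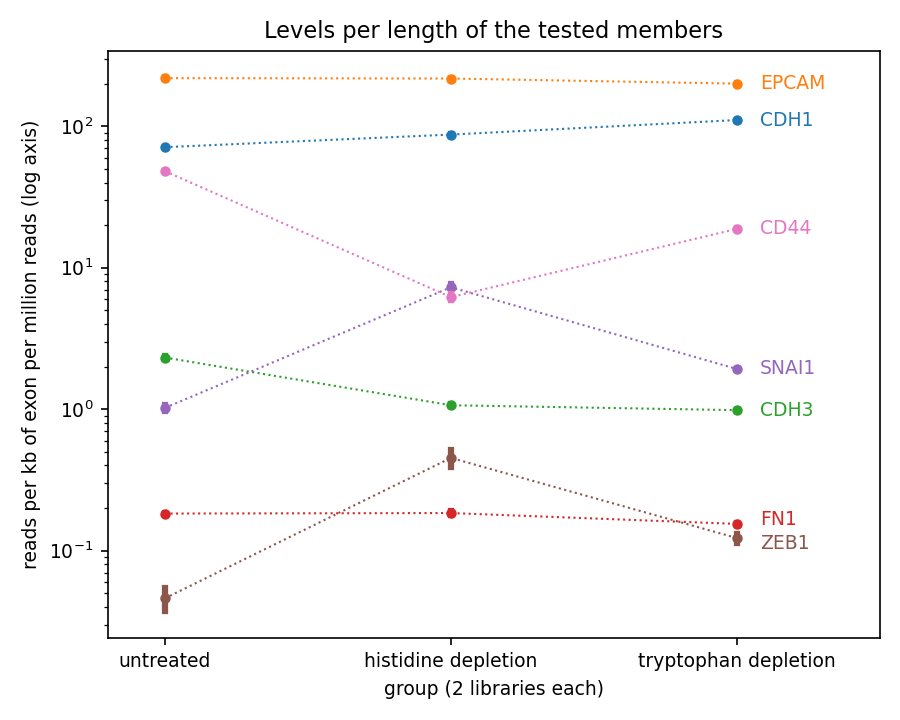
Reads per kilobase of exon per 1 M reads on a log axis for the 7 tested members in the 3 groups, with a point at the mean of 2 libraries, a thick bar from the lower to the higher library, and dotted lines that only join the points of a gene. EPCAM and CDH1 stay at the top, and without histidine SNAI1 stands above CDH3 and CD44. The order depends on the length taken for each gene, here the union of its annotated exons.

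In the direct contrast of histidine with tryptophan depletion, on reads scaled over all 6 libraries, 5 of the 7 tested members were higher without histidine (CDH3, EPCAM, FN1, SNAI1 and ZEB1) and 2 lower (CDH1 and CD44), against 38.7% and 38.0% of 18264 genes. With a log2 difference of at least 1 as a further condition 2 were higher, SNAI1 and ZEB1, and 1 was lower, CD44, against 16.0% and 15.8% of genes. These 3 members also had the largest changes against untreated cells after histidine depletion, a comparison that shares the histidine-depleted libraries. For CDH1, EPCAM, CDH3 and FN1 the differences between the depletions were 0.24, 0.22, 0.22 and 0.35 in size on the log2 scale, at or under a factor of 1.28.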

How the data were processed

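RNA-seq of HT29 cells was used, with 2 libraries for each of 3 groups. The libraries were made from mRNA with a stranded kit and adapters that carry molecular identifiers. According to the methods and the submitters' processing notes, reads were aligned with STAR 2.7.10a to GRCh38 and reads on exons were counted with HTSeq 2.0.5 and an older gencode annotation. The methods speak of protein-coding genes, while the tables list 60676 genes of all types. Use of the identifiers and of strand in counting is not given in the sources used here. The authors divided the counts by DESeq2 size factors and deposited these normalized counts (signal values of at least 0) in separate tables for the depletions, both with the same untreated libraries.

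Within a library every value was a whole multiple (within 0.01) of its smallest step for 100% of values above 0, and dividing by that step recovered the reads. Gene names came from gencode 44, which held 60357 of the identifiers. Tests used limma 3.58.1 in R 4.3.3 with a trend, two-sided, on log2(normalized count + 1), kept to genes whose mean reached 10, with Benjamini-Hochberg adjustment over all genes tested. Tests against untreated cells used 1 deposited table each, and the direct contrast used recovered reads of the 6 libraries scaled by the median of ratios. edgeR 4.0.16 and DESeq2 1.42.0 on the recovered reads, other pseudocounts, filters and scalings, a replicate block and each library left out were tried. Code was tested on simulated counts. Intervals and limits from counts cover counting error only.

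The 10 members and the 12 lists were chosen with earlier results of these data known. Lists, which leave out the members, are described by counts and medians, without a set test. The rule named, per list and depletion, up to 3 called genes with the largest change, groups that do not overlap and at least 100 normalized counts as the mean of the higher one. Not every gene it selects is reported here. Python 3.11.15 with pandas 2.3.3 and matplotlib 3.10.9 made tables and plots.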

Additional observations from a re-analysis of the deposited data

Results flagged for a closer look

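SPTLC1P1, a processed pseudogene that lies within the span of ZEB1 on the same strand and shares no exonic base with it, stood out as a signal outside the members. Its log2 fold change after histidine depletion was 1.29 (SE 0.30, limma adjusted p = 0.000394), from 16.4 ± 3.33 normalized counts (SD, n = 2) in untreated cells to 41.2 ± 3.33, higher in 2 of 2 libraries. After tryptophan depletion it was 0.31 (adjusted p = 0.448). Whether these reads come from unspliced ZEB1 was not tested.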

How the results depend on the processing

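CDH1, CDH3, SNAI1, ZEB1 and CD44 kept direction and call against untreated cells under the alternatives run other than the limit on the fold, except that ZEB1 after tryptophan depletion was not tested with a mean of at least 50. The limit on the fold, a log2 fold change of at least 1, ended the calls of CDH1 for both depletions, of CDH3 for histidine and of SNAI1 for tryptophan. EPCAM after histidine depletion reversed to -0.077 with quantile normalization and to -0.0096 with the library total. The cause was not tested. Scaling to the library total moved the median of all genes by -0.19 after histidine depletion and by -0.10 in the direct contrast. Under the limit on the fold the members called fell to 2 higher and 1 lower for histidine, 1 higher and 2 lower for tryptophan, and 2 higher and 1 lower in the direct contrast. Genes called then numbered 3002 higher and 2947 lower, 1801 and 1873, and 2914 and 2880. In the direct contrast 3 members were higher with the library total or DESeq2, and 3 to 5 when a library was left out, with 3 without histidine-depleted library 1 or tryptophan-depleted library 1. Of 1200 list counts under the alternatives, 98 moved by over 1.5 times, 50 of them from the limit on the fold.

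Libraries with the same number shared only that number: deviations from the group means correlated at 0.0502, 0.00739 and -0.0412 in the 3 comparisons. With a replicate block, 4 members were higher and 2 lower for histidine, 3 and 2 for tryptophan and 5 and 2 in the direct contrast, and 7311 and 7121 genes were called for histidine. Depth limits VIM, CDH2, SNAI2 and the untreated level of ZEB1.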
